A study of Homo sapiens with 6 samples.

Results

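Insulin-like growth factor (IGF) signalling was followed in cultured airway epithelium through 10 genes chosen by name: the IGF binding protein genes *IGFBP1* to *IGFBP7*, the receptor genes *IGF1R* and *IGF2R*, and the ligand gene *IGF2*. They are 10 of the 61228 genes in the deposited expression tables, and are named in full whatever their values. The cells were HBECs (called HBE cells in the labels), an immortalized line of human bronchial epithelium with WT genotype, so that all libraries come from a single line. In 3 libraries the cells had received CRE, a cockroach extract used as allergen, and in the other 3 they had received CRE together with VAF347, an agonist of the aryl hydrocarbon receptor (AhR). The labels give 24 h of treatment for both groups, and the methods place VAF347 at 20 µM 1 h before CRE. Both groups thus carry the allergen, and the comparison asks how the IGF genes of CRE-treated HBECs differed with VAF347. Untreated libraries were not analysed here. Nothing states that the 3 libraries of a group came from separate cultures, so the p-values measure the spread between these libraries, which may be technical.

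IGF-I and IGF-II are secreted growth factors that bind IGF1R, a receptor tyrosine kinase that signals through insulin receptor substrates to the PI3K-AKT and MAPK pathways. IGF2R has no kinase; it takes up IGF-II for degradation and sorts lysosomal enzymes. The IGFBPs are secreted carriers that hold most extracellular IGF, lengthen its life and limit its access to IGF1R, and proteases release it again. In airway tissue the system is known for its part in epithelial growth and repair, and several IGFBPs are secreted by senescent cells.

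With VAF347, *IGFBP3* and *IGFBP5* transcripts fell. *IGFBP3*, the most abundant of the 10 genes, was 1.87-fold lower. *IGFBP5*, which was scarce with CRE, had a fitted log2 fold change of -2.57, with a wide 95% interval of -3.58 to -1.55 (edgeR). The decrease of *IGFBP5* is less secure, since each CRE + VAF347 library held 3 counts or fewer. It did not pass the test without CRE + VAF347 replicate 1 or without CRE + VAF347 replicate 3 (edgeR, adjusted p = 0.0544 and 0.0605). *IGFBP4* was 1.18-fold lower, short of the fold threshold. Neither receptor passed the test, and neither did *IGF2*, *IGFBP2*, *IGFBP6* or *IGFBP7*. *IGFBP1* was at no more than 1 count in any library.

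The sequence in front of the start of the genes that fell, and of the receptor gene *IGF1R* for contrast, is shown because AhR, once bound by an agonist, recognises DNA with the core letters GCGTG. RefSeq (GRCh38.p14) gave 250 bases before the start for 7 of the 10 genes; *IGFBP1*, *IGFBP7* and *IGF2* have no entry. The windows read 5′ to 3′ on the strand of the gene, and capitals mark GCGTG or its reverse complement CACGC. They lie at chr7:45921273-45921522 on the minus strand for *IGFBP3*, chr2:216695550-216695799 on the minus strand for *IGFBP5*, and chr15:98648289-98648538 on the plus strand for *IGF1R*.
IGFBP3: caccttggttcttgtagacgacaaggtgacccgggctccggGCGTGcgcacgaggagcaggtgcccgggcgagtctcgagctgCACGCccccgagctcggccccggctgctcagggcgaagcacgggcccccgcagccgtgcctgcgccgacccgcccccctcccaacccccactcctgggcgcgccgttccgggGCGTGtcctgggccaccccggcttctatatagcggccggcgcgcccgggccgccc
IGFBP5: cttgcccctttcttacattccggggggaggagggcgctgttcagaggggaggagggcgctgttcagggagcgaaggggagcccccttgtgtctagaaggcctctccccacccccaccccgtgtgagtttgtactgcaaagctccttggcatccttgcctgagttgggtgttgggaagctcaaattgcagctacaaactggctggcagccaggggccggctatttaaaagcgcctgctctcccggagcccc
IGF1R: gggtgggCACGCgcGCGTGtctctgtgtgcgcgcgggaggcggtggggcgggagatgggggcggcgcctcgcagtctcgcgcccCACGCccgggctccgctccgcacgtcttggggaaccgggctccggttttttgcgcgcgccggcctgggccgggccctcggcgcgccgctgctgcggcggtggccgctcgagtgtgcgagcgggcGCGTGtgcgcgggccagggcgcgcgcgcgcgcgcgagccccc
The *IGFBP3* window held 3 copies of the core, at positions -209, -167 and -55 from the start, and the *IGFBP5* window held 0. *IGF1R*, whose level did not pass the test, had 4 copies, at positions -243, -236, -166 and -42. The windows of *IGFBP4*, *IGFBP6* and *IGF2R* held 0, and of 3 annotated starts of *IGFBP2* only 1 had a copy in front of it. The same letters occur at least once on either strand in 32.2% of 35114 RefSeq windows of this length. That share is not matched for GC content, which was 76.0% in the *IGFBP3* window, 61.2% in that of *IGFBP5* and 81.2% in that of *IGF1R*. The other letters searched were CACGTG, the E-box bound by MYC and related factors, found in 6.35% of the windows. *IGF2R* held 3 copies of it, and the windows of the other 6 genes held 0. A match describes the letters only, since binding was not measured in these libraries. In GENCODE v44 the *IGFBP3* window lies inside an intron of a longer *IGFBP3* transcript and in no exon, the *IGF1R* window overlaps no exon, and the *IGFBP5* window overlaps an exon of the antisense lncRNA *DIRC3-AS1*.

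The libraries held between 8873160 and 10750283 estimated fragments in all, so that 1 count is worth 0.093 to 0.113 CPM (counts per 1000000 counts of the library). CRE replicate 3 stood apart. Its counts differed from those of the other CRE libraries by a mean chi-square per gene of 8.52 and 8.24, against 1.75 to 2.46 in the other pairs of replicates, and the members' log2 fold changes are given with and without it. Of 9 airway epithelial markers, 7 exceeded 3 counts, and the list summed to 3460 to 4310 TPM (transcripts per 1000000 transcripts) with CRE and 3470 to 3550 with CRE + VAF347; of the basal cell genes among them, *KRT5* and *KRT17* exceeded 3 counts and *KRT14* and *TP63* did not. Of 7 fibroblast markers 3 exceeded 3 counts, with sums of 19.4 to 20.8 TPM against 14.9 to 19.0. Most of the fibroblast sum came from *COL1A1*, while *DCN*, *LUM* and *PDGFRA* were at 0. Of 4 endothelial markers 3 exceeded 3 counts, with 9.41 to 10.4 against 6.03 to 7.46. Of 5 immune markers 2 exceeded 3 counts, with 24.7 to 28.3 against 17.0 to 22.6. Most of the immune sum came from *CD68*, followed by *CD14*, and *MS4A1* was at 0. Of 4 smooth muscle markers 1 exceeded 3 counts, with 0.294 to 1.35 against 0.254 to 0.640. The 4 AhR-responsive genes taken as a check of the treatment summed to 36.4 to 49.3 TPM with CRE and 292 to 331 with CRE + VAF347. By mean TPM over all libraries, most of this sum came from a single gene. The part of other cell types in the results below was not tested.

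TPM, which divides by transcript length, allows levels of different genes to be compared. *IGFBP3* ranked 131 of all genes by mean TPM over the 6 libraries. With CRE it led the members at 1359 ± 231 TPM (SD, n = 3). It was followed by *IGFBP6* at 97.9 ± 10.5, *IGFBP4* at 82.1 ± 4.79 and *IGF2R* at 65.9 ± 9.96 TPM. The signalling receptor gene *IGF1R* had 28.5 ± 1.86 TPM, below all of these. *IGFBP7* (9.59 ± 1.5 TPM) and *IGFBP2* (3.47 ± 0.0886 TPM) came next. *IGF2* (0.431 ± 0.210 TPM), *IGFBP5* (0.294 ± 0.0542 TPM) and *IGFBP1* (0.0572 ± 0.0991 TPM) were under 1 TPM. The ranges of neighbours in this order were separate except for *IGF2* and *IGFBP5*, and *IGFBP1*, at 0 counts in 2 CRE libraries and 1 in the other, cannot be ranked. With CRE + VAF347 the order of the first 8 was the same, and *IGFBP5* was at 0.0465 ± 0.0225 TPM. There *IGFBP1* had 0.156 ± 0.0184 TPM, which is 1 count in each library, and its range overlapped that of *IGF2*, at 0.503 ± 0.497 TPM; *IGFBP1* and *IGFBP5*, both at 3 counts or fewer, cannot be ordered.

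**Figure D1:**
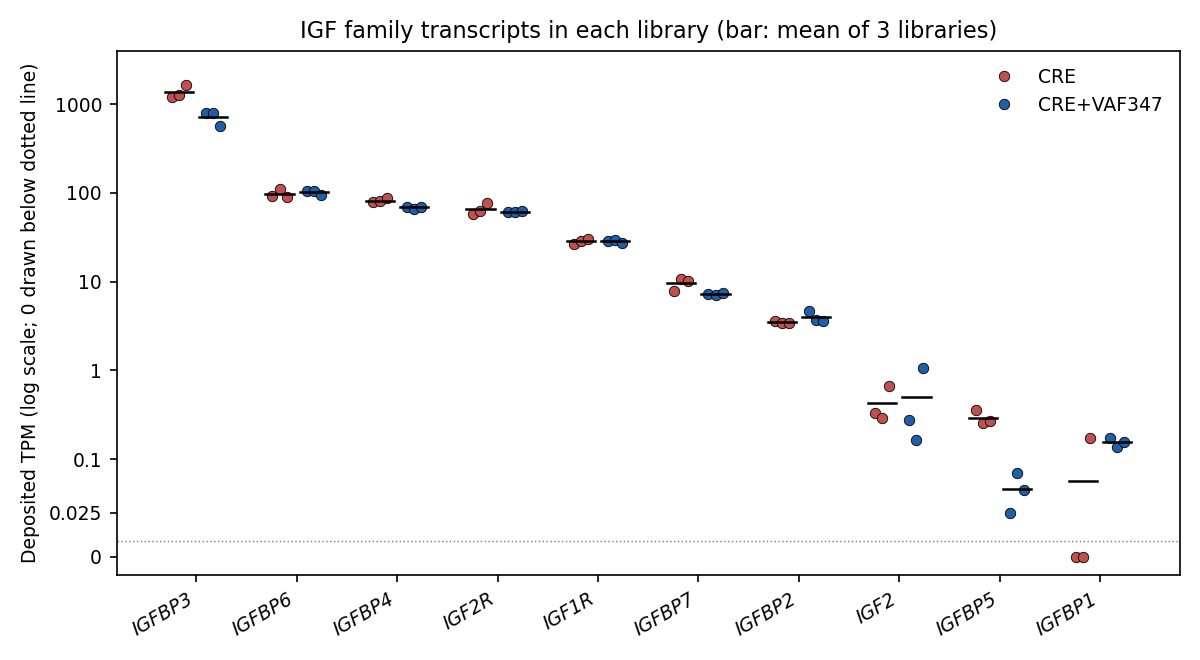
Deposited TPM of the 10 genes in each library, on a log axis, with 3 points per group and a bar at the mean; values of 0 are drawn below the dotted line. *IGFBP3* lies above every other gene in every library, between 1199 and 1624 TPM with CRE and between 566.9 and 802.4 TPM with CRE + VAF347.

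Changes were tested on the estimated counts with edgeR's quasi-likelihood test, with Benjamini-Hochberg adjustment over 15373 genes that passed a filter on low counts; 9 of the 10 members passed it, and *IGFBP1* did not. A gene is called here where its adjusted p is below 0.05 and its log2 fold change exceeds 0.5 in either direction. This calls 340 genes, 2.21% of those tested, of which 263 (1.71%) were lower and 77 higher with VAF347. On log2(TPM + 1) with limma the split was 50 lower and 34 higher at a mean TPM of at least 1. Without that filter it was 12 lower and 20 higher, so the excess of lower genes depends on the fit. Of the 9 members tested, 2 were called, both lower. In 4 of them every CRE + VAF347 library lay below every CRE library, and in 0 every library lay above, where 14.8% and 12.5% of all genes tested did so. The median log2 fold change of the 9 members was -0.09, beside 0.01 over all genes tested. Values by library below are normalized CPM, in which the library totals are scaled by the trimmed mean of M-values (TMM). In bulk RNA, fewer cells that express a gene and less RNA per cell cannot be told apart.

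**Figure D2:**
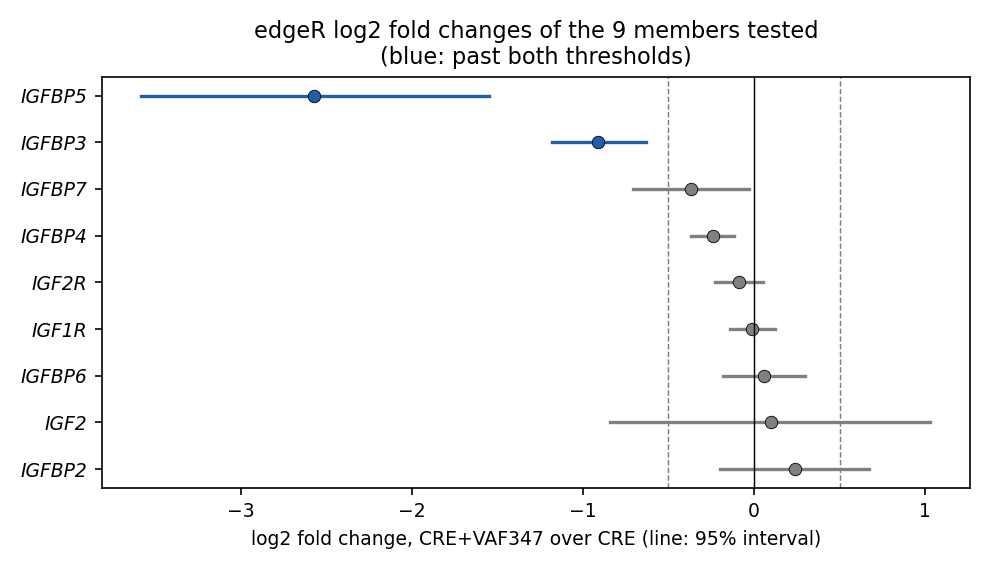
Log2 fold changes (CRE + VAF347 over CRE, horizontal axis) of the 9 members tested by edgeR, each with its 95% interval, with dashed lines at the threshold of 0.5 in either direction. Only *IGFBP5* and *IGFBP3* have intervals that lie wholly beyond -0.5, and those of *IGF1R*, *IGF2R*, *IGFBP6*, *IGF2* and *IGFBP2* span 0.

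*IGF2*, on chr11:2129112-2158391, is the only IGF ligand among the members and encodes IGF-II, a growth factor of fetal life that binds both receptors. Its counts were 13, 12 and 13 in the CRE libraries against 9, 6 and 23 in those with CRE + VAF347. The groups overlapped, and CRE + VAF347 replicate 3 alone lay above the rest. Mean CPM was 1.25 ± 0.0885 (SD, n = 3) against 1.31 ± 0.872 (SD, n = 3), a log2 fold change of 0.10 with a standard error of 0.43 and a 95% interval of -0.84 to 1.03 (edgeR, adjusted p = 0.929). Without that replicate the log2 fold change was -0.61 (edgeR, adjusted p = 0.511), and without CRE replicate 3 it was 0.08 (edgeR, adjusted p = 0.952). The estimated length of the *IGF2* transcripts was also uneven, from 0.645 to 1.26 times the mean over libraries, and it was lowest in both libraries numbered 3, so that TPM there was 0.673 and 1.07, against 0.163 to 0.329 in the others. The gene shares sequence with the read-through gene *INS-IGF2*, listed at 0 counts in all 6 libraries, and the split between them is uncertain. At 6 to 23 counts per library a difference of up to the interval's limits was not detectable.

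Few other ligand genes were detected. *IGF1* and *INS* were at 0 counts in every library, and of 7 listed ligand genes only *IGF2* and *IGFL1* were tested. *IGFL1*, an IGF-like secreted factor of skin, had 1.74 ± 0.151 CPM with CRE and 2.13 ± 0.587 with CRE + VAF347 (SD, n = 3), and its log2 fold change of 0.28 missed the threshold (edgeR, adjusted p = 0.598). Transcripts of IGF-I were thus not detected in these cells at this depth, where a count of 0 allows up to 3 counts, or 0.279 to 0.338 CPM per library.

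*IGF1R*, on chr15:98648539-98964530, had 206.8, 208.5 and 220.9 CPM with CRE and 209.0, 219.6 and 204.1 with CRE + VAF347. The 6 values were intermixed. The log2 fold change was -0.01, with a standard error of 0.06 and a 95% interval of -0.14 to 0.12 (edgeR, adjusted p = 0.960), and 0.02 without CRE replicate 3 (edgeR, adjusted p = 0.848). The interval leaves room for a change of about 0.14 in either direction on the log2 scale and excludes one of 0.5. *IGF2R*, on chr6:159969082-160113507, encodes the receptor that clears IGF-II. It had 314.1, 327.4 and 356.0 CPM with CRE and 303.0, 310.6 and 321.2 with CRE + VAF347. The groups overlapped, with the highest value in CRE replicate 3. The change on the log2 scale was -0.09, with a standard error of 0.06 and a 95% interval of -0.23 to 0.05 (edgeR, adjusted p = 0.445), and -0.04 without that library (edgeR, adjusted p = 0.680).

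The ratio of *IGF2R* to *IGF1R* in TPM was 2.19, 2.18 and 2.54 with CRE and 2.13, 2.04 and 2.29 with CRE + VAF347, so the clearing receptor had more transcripts than the signalling receptor in each of the 6 libraries. The groups overlapped (exact permutation test, two-sided, p = 0.4; the smallest p that 3 against 3 allows is 0.1).

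*IGFBP3*, on the minus strand at chr7:45912245-45921874, encodes the main IGF carrier of blood and is known as a target of p53 and of TGF-β. Its libraries had 19241, 21416 and 25330 counts with CRE, and 11530, 11987 and 8937 with CRE + VAF347. In CPM these were 1992, 2101 and 2367 against 1295, 1260 and 891.6. The groups did not overlap: the lowest CRE value was well above the highest with CRE + VAF347, and the libraries numbered 3 were the highest and the lowest of the 6. The mean fell from 2154 ± 193 to 1149 ± 224 CPM (SD, n = 3), a log2 fold change of -0.91 with a standard error of 0.12 and a 95% interval of -1.18 to -0.63 (edgeR, adjusted p = 0.0019). The transcript thus decreased by 46.6%. Without CRE replicate 3 the log2 fold change was -0.83 (edgeR, adjusted p = 8.78e-05), and over all fits that left out 1 library it lay between -1.01 and -0.76, the smaller size without CRE + VAF347 replicate 3. The gene ranked 233 of 15373 by the size of its change.

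*IGFBP5*, on the minus strand at chr2:216672105-216695549, encodes the most conserved IGFBP, which binds extracellular matrix. Its counts were 16, 12 and 12 in the CRE libraries against 1, 3 and 2 in those with CRE + VAF347. All 3 CRE libraries were above all 3 with VAF347, and the latter were at or under 3 counts, the number that a count of 0 can hide. The mean was 1.32 ± 0.294 CPM with CRE and 0.209 ± 0.102 with CRE + VAF347 (SD, n = 3). Set at 3 counts in the shallowest CRE + VAF347 library, the gene would be 3.91-fold lower than the CRE mean (log2 -1.97). That ratio takes no account of counting error in the CRE mean, so it is not a lower limit of the change. The fitted log2 fold change was -2.57 (standard error 0.46, 95% interval -3.58 to -1.55, edgeR adjusted p = 0.00886). This fitted value depends on the prior count used for such low values and is no bound. Without CRE replicate 3 the fitted value was -2.67 (edgeR, adjusted p = 0.00703). The call was lost without CRE + VAF347 replicate 1 (adjusted p = 0.0544) and without CRE + VAF347 replicate 3 (adjusted p = 0.0605). The start of the gene overlaps the antisense *DIRC3-AS1*, which had 2 counts in each of 2 CRE libraries and 0 in the other 4; whether the counting used strand is not given in the sources used here.

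**Figure D3:**
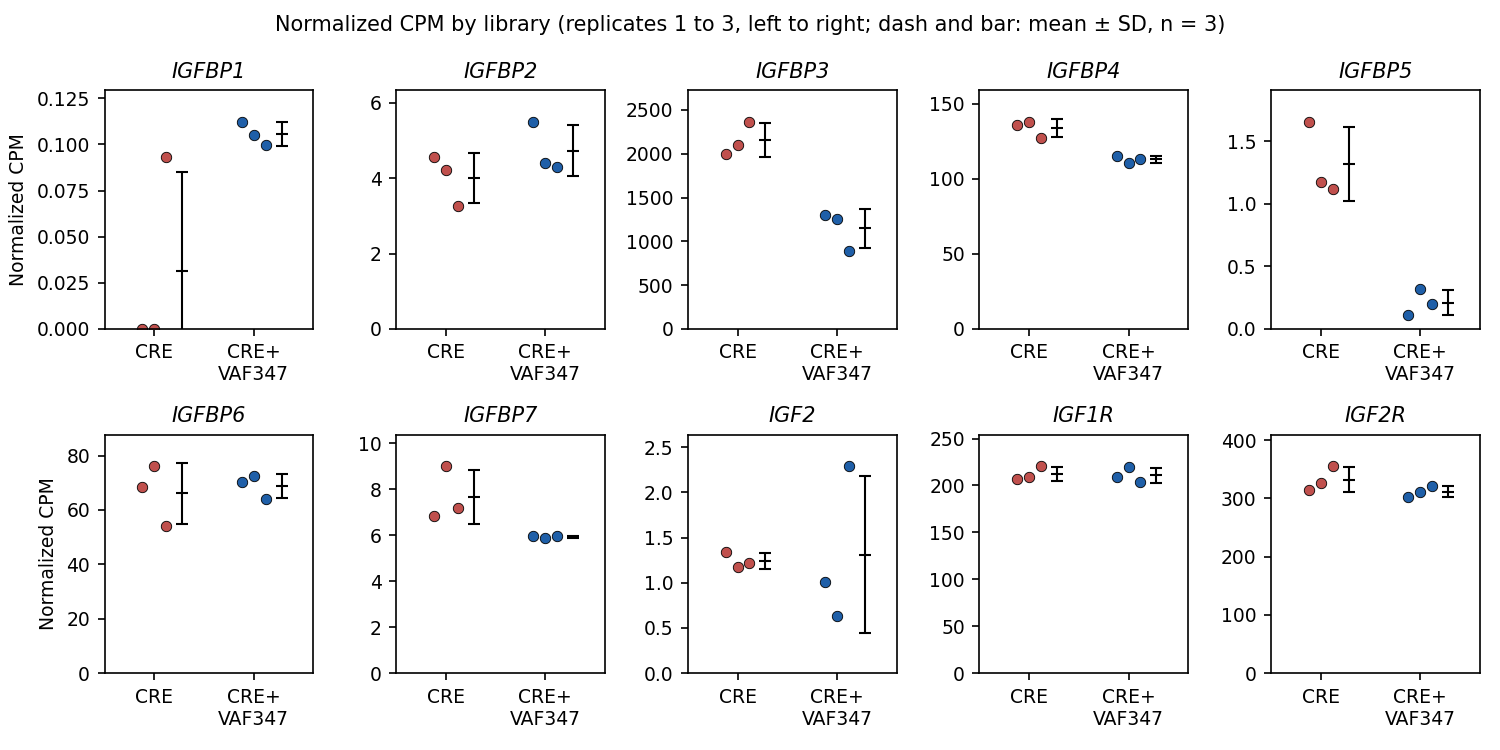
Normalized CPM of each of the 10 genes, on linear axes from 0, with 1 point per library in the order of the replicate numbers and the mean ± SD (n = 3) beside them. *IGFBP3*, *IGFBP4*, *IGFBP5* and *IGFBP7* have all 3 CRE + VAF347 points below all 3 CRE points; the *IGFBP1* panel shows libraries with 0 or 1 count.

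*IGFBP3* and *IGFBP5* do not lie together. *IGFBP3* is a neighbour of *IGFBP1* on chromosome 7, with 18584 bases between them, and *IGFBP5* is a neighbour of *IGFBP2* on chromosome 2, with 7668 bases between them, and the genes of each pair run towards each other. The genes on the minus strand, *IGFBP3* and *IGFBP5*, were called lower with VAF347. On the plus strand *IGFBP2* was not called and *IGFBP1* was too low to be tested, so the pairs cannot be compared by strand. *IGFBP1*, at chr7:45888360-45893660, encodes an insulin-regulated binding protein of liver. It had 0, 0 and 1 counts with CRE and 1 count in each CRE + VAF347 library. No fold is given, since both groups are under 3 counts. *IGFBP2*, at chr2:216632828-216664436, encodes a binding protein that also contacts integrins. It had 4.56, 4.22 and 3.27 CPM with CRE and 5.51, 4.42 and 4.29 with CRE + VAF347. The groups overlapped, and the log2 fold change was 0.24 (standard error 0.20, 95% interval -0.20 to 0.67, edgeR adjusted p = 0.537). It was 0.11 without CRE replicate 3, the lowest library, and also 0.11 without CRE + VAF347 replicate 1, the highest (edgeR, adjusted p = 0.826 and 0.848).

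*IGFBP4*, at chr17:40443450-40457725, encodes an inhibitory binding protein that the protease PAPPA cleaves. It had 136.1, 138.1 and 127.3 CPM with CRE and 115.3, 110.3 and 113.3 with CRE + VAF347. The groups did not overlap, and the spread within each was small, with coefficients of variation of 4.31% and 2.23%. The mean was 134 ± 5.77 against 113 ± 2.52 CPM (SD, n = 3), a log2 fold change of -0.24 with a standard error of 0.06 and a 95% interval of -0.37 to -0.12 (edgeR, adjusted p = 0.0355), which is past the p threshold but short of the fold threshold. Without CRE replicate 3 the log2 fold change was -0.28 (edgeR, adjusted p = 0.00257), and the adjusted p was 0.0915 to 0.160 when any other single library was left out. With an offset for GC content the log2 fold change was -0.16 (edgeR, adjusted p = 0.158). The exons of *IGFBP4* have 62.6% GC, and across 11110 genes the log2 fold change fell with GC content (Spearman rho = -0.35, across genes, which are not independent replicates).

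*IGFBP7*, at chr4:57030773-57110385, encodes a secreted low-affinity relative that also binds insulin and is known for its part in senescence. It had 6.83, 9.03 and 7.20 CPM with CRE and 5.96, 5.89 and 5.99 with CRE + VAF347. The groups did not overlap, but in CPM CRE replicate 2 was far above the others of its group. In TPM the CRE libraries had 7.88, 10.71 and 10.16, so that CRE replicate 3 was nearly as high. The mean was 7.69 ± 1.18 against 5.94 ± 0.0506 CPM (SD, n = 3), and the log2 fold change of -0.37 (standard error 0.15, 95% interval -0.71 to -0.03) did not pass the test (edgeR, adjusted p = 0.200). Without CRE replicate 2 the log2 fold change was -0.24 (edgeR, adjusted p = 0.451), and without CRE replicate 3 it was -0.42 (edgeR, adjusted p = 0.169). Its last bases overlap the antisense gene *POLR2B*, which had 1373 to 1839 counts.

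*IGFBP6*, at chr12:53097436-53102345, encodes the binding protein that prefers IGF-II. It had 68.3, 76.2 and 54.0 CPM with CRE and 70.2, 72.4 and 64.0 with CRE + VAF347. The groups overlapped, and the lowest value was that of CRE replicate 3. The log2 fold change was 0.06, with a standard error of 0.11 and a 95% interval of -0.18 to 0.30 (edgeR, adjusted p = 0.805). Without CRE replicate 3 it was -0.07 (edgeR, adjusted p = 0.605), so its direction rests on that library. The interval excludes a change of 0.5 on the log2 scale.

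*IGFBP3* made up most of the IGFBP transcripts in every library. The 7 IGFBP genes summed to 1382, 1461 and 1816 TPM with CRE and to 989.6, 973.8 and 743.9 with CRE + VAF347. These groups did not overlap, and the mean went from 1553 ± 231 to 902 ± 138 TPM (SD, n = 3). *IGFBP3* made up 86.7%, 86.0% and 89.4% of the sum with CRE and 81.1%, 81.3% and 76.2% with CRE + VAF347. Without *IGFBP3* the sum was 183.4, 205.2 and 191.7 TPM against 187.2, 182.3 and 177.0, and the groups overlapped. *IGFBP6* held 6.42% ± 1.31 of the sum with CRE and 11.4% ± 1.22 with CRE + VAF347 (SD, n = 3), while its own TPM was 97.9 ± 10.5 and 102 ± 5.58. *IGFBP4* held 5.34% ± 0.451 and 7.78% ± 1.45 in the same way. These sums and shares are given as a description, since *IGFBP3* was already tested by itself.

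**Figure D4:**
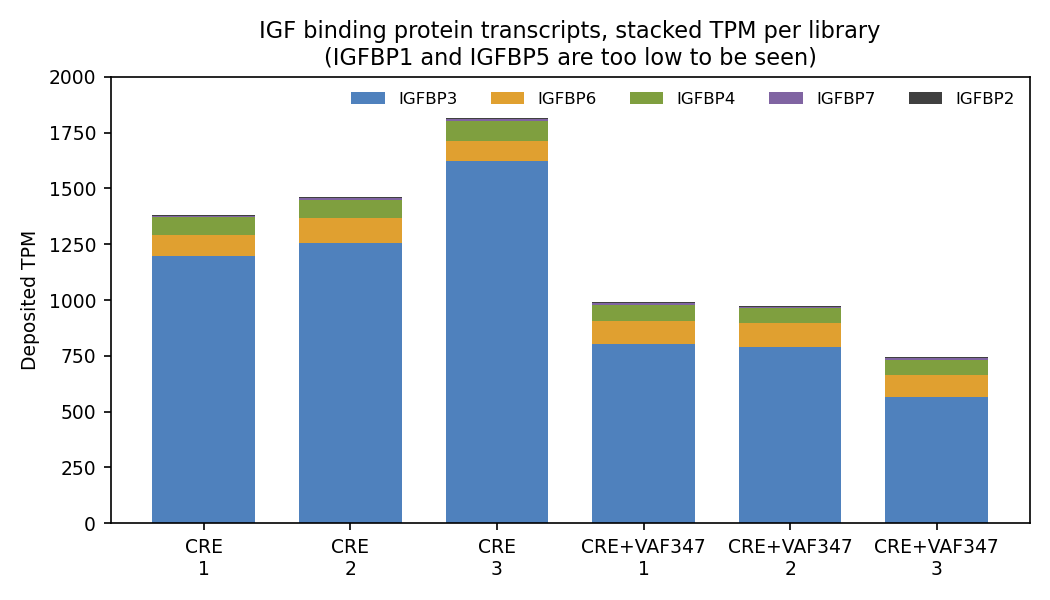
Stacked TPM of the IGF binding protein genes in each of the 6 libraries, on a linear axis from 0; *IGFBP1* and *IGFBP5*, under 1 TPM, cannot be seen and are left out. The *IGFBP3* part of each bar shrinks from between 1199 and 1624 TPM with CRE to between 566.9 and 802.4 TPM with CRE + VAF347, and the parts above it stay between 177.0 and 205.2 TPM in sum.

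Relative to the receptor, *IGFBP3* had 45.0, 44 and 53.5 transcripts per *IGF1R* transcript in TPM with CRE, and 28.2, 26.7 and 20.7 with CRE + VAF347. Relative to *IGFBP6* the numbers were 12.8, 11.4 and 18.0 against 7.62, 7.55 and 5.94. In neither ratio did the groups overlap, and for each the exact permutation test (two-sided) gave p = 0.1, the smallest that 3 against 3 allows. Both ratios are a description, since *IGFBP3* was already tested by itself and no p below 0.05 was possible. *IGFBP6* to *IGFBP4*, both uncalled, was 1.2, 1.36 and 1.03 against 1.51, 1.58 and 1.36, with groups that met at 1.36 (exact permutation test, two-sided, p = 0.2). These are 3 of 4 ratios computed, the other being that of the receptors, and after Benjamini-Hochberg adjustment over the 4 the p-values were 0.2 for both *IGFBP3* ratios, 0.267 for *IGFBP6* to *IGFBP4* and 0.4 for the receptors.

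The wider IGF system was read from 8 lists of 76 genes, the members included, of which 56 were tested. Across them 7 genes were called lower and 1 higher, and the median log2 fold change was -0.09. Leaving the members aside, 47 of 66 were tested, and 5 were called lower and 1 higher, with a median of -0.08. These 6 of 47 stand beside 2.21% of all genes tested, but 3 of them came from the list of matrix and serum partners. The lists were written with earlier results of these data known, so the share carries no test. The count over all 56 was 5 without CRE + VAF347 replicate 3 and 8 without CRE replicate 3.

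Among proteases of IGFBPs and their inhibitors, 5 of 10 were tested, with 1 called lower and 1 higher. These were the 2 stanniocalcins, secreted glycoproteins that inhibit PAPPA, and they went in opposite directions. *STC1* fell from 21.9 ± 2.32 to 13.1 ± 3.04 CPM (SD, n = 3; log2 fold change -0.75, standard error 0.15, edgeR adjusted p = 0.0183). *STC2* rose from 75.1 ± 4.56 to 120 ± 2.03 CPM (SD, n = 3; log2 fold change 0.68, standard error 0.06, edgeR adjusted p = 0.000179), the only gene of the lists called higher. The proteases that they inhibit, *PAPPA* and *PAPPA2*, were below the filter on low counts. *CTSD*, a lysosomal protease, had a log2 fold change of -0.49 (edgeR, adjusted p = 0.00238), just short of the fold threshold, and *ADAM9*, a membrane protease, had -0.23 (edgeR, adjusted p = 0.0359).

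Of 6 genes for matrix and serum partners of the IGFBPs, 3 were tested and called lower, and *VTN*, *TF* and *SPP1* were below the filter. *FN1*, fibronectin, fell from 3391 ± 361 to 1591 ± 194 CPM (SD, n = 3), a log2 fold change of -1.09 (edgeR, adjusted p = 0.000143). *THBS1*, thrombospondin, fell from 1345 ± 175 to 827 ± 63.0 CPM (log2 fold change -0.70, edgeR adjusted p = 0.00144).

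Of 9 genes for relatives of the IGFBPs, the CCN family among them, 6 were tested and 1 was called. *CCN2*, connective tissue growth factor, fell from 15.6 ± 1.5 to 9.86 ± 0.727 CPM (log2 fold change -0.66, edgeR adjusted p = 0.00857). Its abundant relative *CCN1* had a log2 fold change of 0.14 (edgeR, adjusted p = 0.229), and *CRIM1*, a membrane protein with an IGFBP-like domain, had -0.28 (edgeR, adjusted p = 0.0228).

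Receptors and intracellular signalling held no call. Of 7 receptor genes 6 were tested, with a median log2 fold change of -0.10, and *TMEM219*, which encodes a receptor for IGFBP3, had -0.02 (edgeR, adjusted p = 0.879). The only receptor gene with an adjusted p under 0.05 at any fold change was *LRP1*, an endocytic receptor named after its values were seen, at 122 ± 14.6 CPM with CRE and 89.4 ± 3.39 with CRE + VAF347 (SD, n = 3; log2 fold change -0.45, edgeR adjusted p = 0.0096), and its groups did not overlap. Of 25 signalling genes from the insulin receptor substrates to AKT and mTOR, 24 were tested and 0 were called, with a median of -0.03. At an adjusted p under 0.05 and any fold change 3 of these passed, among them the PI3K regulatory subunit genes *PIK3R1* (0.47) and *PIK3R3* (0.32), named after their values were seen. The most abundant, *EIF4EBP1* and *AKT1*, had log2 fold changes of -0.09 and -0.04. The 3 IGF2 mRNA-binding protein genes were tested and not called, with -0.24 for *IGF2BP2* and 0.08 for *IGF2BP3*.

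**Figure D5:**
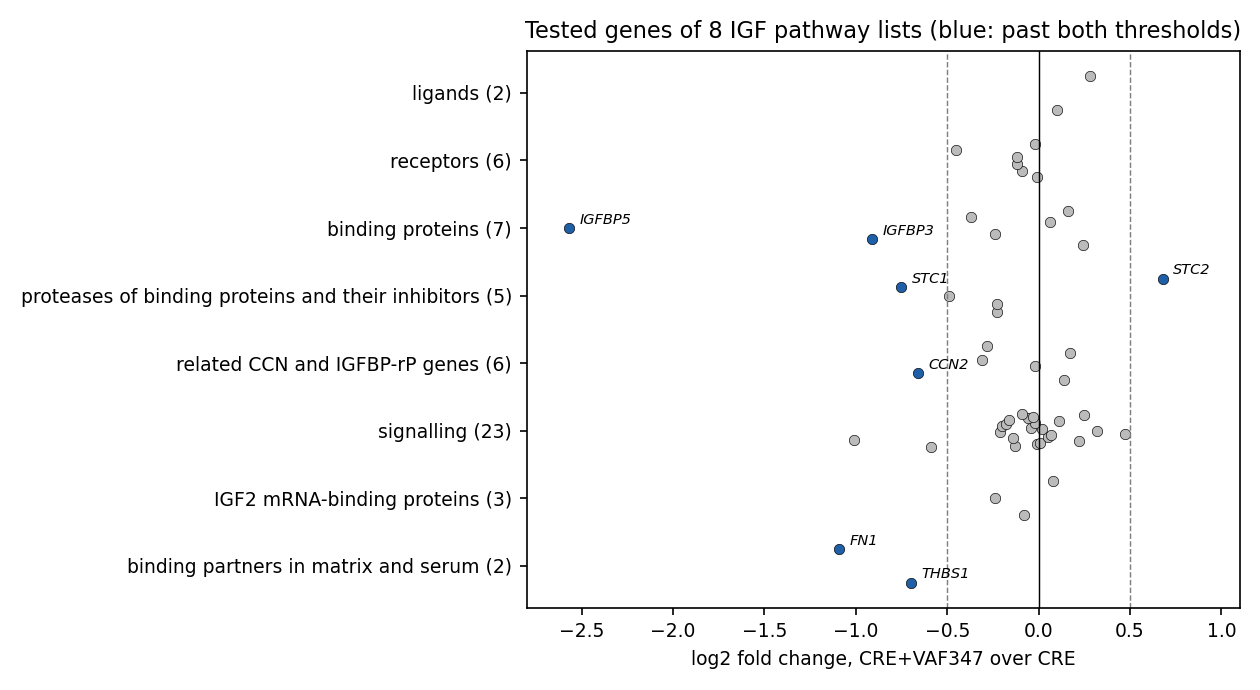
Log2 fold changes (CRE + VAF347 over CRE, horizontal axis) of 54 tested genes of 8 IGF pathway lists, 1 row per list with the number shown in parentheses and dashed lines at 0.5 in either direction. The called genes shown are blue and named: 6 lie to the left, *FN1* and *THBS1* among them, and *STC2* alone lies to the right; grey points beyond the dashed lines did not pass the p threshold.

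The genes whose levels followed the called members most closely were searched among 10857 genes by Pearson's r of log2 CPM over the 6 libraries. The 6 points are 2 separate groups of 3, share their library sizes, and were the best of many, so r describes the match and carries no test. For *IGFBP3* the closest was *COL12A1*, a fibril-associated collagen (r = 0.9995), and *BCKDHA*, *TMPRSS3* and *COL17A1* were among the next, with r of 0.9954 to 0.9955. *COL12A1* fell from 30.5 ± 2.48 to 16.8 ± 3.00 CPM (SD, n = 3), a log2 fold change of -0.87 (edgeR, adjusted p = 0.0026), beside the -0.91 of *IGFBP3*. *TMPRSS3* (-0.71) and *COL17A1*, the hemidesmosomal collagen of basal epithelium (-0.65), were also called lower, and *BCKDHA* (-0.26) was not called. For *IGFBP5* the closest were *KLF5*, *STAT6*, *SSU72*, *ZNF579* and *RXRA* with r between 0.987 and 0.9929. None of these 5 was called, and their log2 fold changes of -0.27 to -0.04 were small beside that of *IGFBP5*, which has 1 to 16 counts per library.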

How the data were processed

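Poly(A)-enriched RNA of 3 CRE and 3 CRE + VAF347 libraries had been sequenced as paired 150-base reads. The authors quantified transcripts with Salmon on hg38 (submitters' processing notes; versions not given in the sources used here) and deposited estimated counts per gene symbol, of which 14.5% were not whole, and TPM values that sum to 1000000 in each library. All 61228 symbols match GENCODE v44, which gave positions on GRCh38. The deposited table of the authors' own comparison (fold changes and p-values) was not used. Columns were matched to samples through the labels, and 0 columns were left unmatched.

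Estimated counts were rounded and fitted with edgeR 4.0.16 (R 4.3.3; filterByExpr, TMM, quasi-likelihood test, Benjamini-Hochberg) as CRE + VAF347 against CRE without covariates; called genes have an adjusted p below 0.05 and a log2 fold change beyond 0.5 in either direction. The script was tested on simulated data. The study's methods used DESeq2, which is an alternative here (1.42.0), beside limma 3.58.1 on log2(TPM + 1), other filters and offsets, the replicate number as block, and leaving out each library. Levels between genes were compared in TPM. Counting floors of 3 counts cover counting error only. The members, lists and tests were chosen with earlier results of these data known. Named are all members, called genes of the pathway lists with up to 2 uncalled examples of the highest mean TPM per list, 3 further genes (*LRP1*, *PIK3R1* and *PIK3R3*) named after their values were seen, some listed genes below the filter, and the 5 genes most like each called member with a mean log2 CPM over 3. Genes that this rule names but that are withheld are not reported here, though counts over lists include them.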

Additional observations from a re-analysis of the deposited data

How the results depend on the processing

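Of 17 other fits, *IGFBP3* kept its direction in all and its call in all but limma on log2(TPM + 1) without a filter (-0.92, adjusted p = 0.233). *IGFBP5* kept its direction in all 13 that gave it an adjusted p. DESeq2 gave it none, and its DESeq2 fold change was left out. The call of *IGFBP5* was lost in that limma fit (-0.31, adjusted p = 0.381) and without CRE + VAF347 replicate 1 or 3. The 2 members called became 1 with DESeq2's Wald test, with a minimum of 10 counts in every library, and with limma on log2(TPM + 1) or log2(TPM + 0.1) at a mean TPM of at least 1, and 0 with limma without a filter; the minimum of counts and that of TPM drop *IGFBP5* itself. The 8 pathway genes became 3, 3 and 0 in the limma fits and 16 at any fold change. The 340 genes called became 598 without a filter, 84, 84 and 32 with limma, 218 with transcript length offsets, 749 at an unadjusted p and 833 at any fold change; the cause was not tested. Leaving out 1 library gave 201 to 380 genes, 1 to 2 members and 5 to 11 pathway genes. The direction turned for *IGF1R* with length offsets (0.04), a GC offset with or without the block (0.02) and leaving out a library (-0.05 to 0.02). It also turned for *IGFBP6* leaving out a library (-0.07 to 0.17) and for *IGF2* likewise (-0.61 to 0.42). None of these turned values passed the p threshold, though the -0.61 of *IGF2*, without CRE + VAF347 replicate 3, was past the fold threshold.

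Libraries with the same number deviated together only weakly (r = 0.053, 0.033 and 0.015), so the numbers were not taken as pairs; each was still the highest correlation of its libraries. With the replicate block 319 genes, 2 members and 8 pathway genes were called, and the adjusted p of *IGFBP4* was 0.0562. At 1 to 23 counts per library, *IGFBP5* and *IGF2* are limited by depth.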
